A study of Mus musculus with 7 samples.

Results

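To follow the fibroblasts of the infarcted heart, 10 genes that mark cardiac fibroblasts or their activation were examined in RNA sequencing data of mouse myocardial tissue. They were chosen by name, with earlier results of these data known, from a table of 56980 genes, and all 10 were found in it. By role they were the resting markers Tcf21, Dpt, Pi16 and Gsn, the activation markers Cthrc1, Fap and Meox1, and the cell surface proteins Ddr2, Thy1 and Ly6a. The samples were myocardium of 3 male C57BL/6J mice collected 4 days after the left coronary artery was ligated (MI group) and of 4 mice operated on in the same way without ligation (sham group). All were wild type and 8 weeks old when obtained, and the mice were assigned to surgery at random. The labels name 7 samples and do not mention pooling, and p-values measure the spread between these samples. Levels were taken as FPKM, which divides a gene's fragments by its length and by the fragments of the library. The table's header, the labels and the study's methods do not name this unit. The values fit it in that they were whole multiples of a step per gene in each mouse, which does not single out this unit. Total RNA of whole tissue was sequenced, so that more cells of a type and more RNA of a gene per cell cannot be told apart in any value below.

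Fibroblasts make and maintain the collagen network of the heart. In the resting heart they carry the transcription factor Tcf21 and secrete matrix proteins such as dermatopontin. After infarction they divide, turn on genes for fibrillar collagen, periostin and other matrix proteins, and build the scar that replaces dead muscle. Cthrc1, Fap and Meox1 are widely used as marks of this activated state, and the surface proteins are used to sort or stain the cells in either state.

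MI replicate 2 stood apart from the other MI mice. Over the 11431 genes tested, its log2 levels correlated with those of the sham mice at 0.984 to 0.987, against 0.878 to 0.881 for MI replicate 1, 0.903 to 0.906 for MI replicate 3, and 0.989 to 0.992 among the sham mice. Mitochondrial transcripts took 28.3% of its fragments, close to the 26.6% to 27.5% of the sham mice, while MI replicates 1 and 3 had 13.6% and 15.0%. Depth did not separate the mice, at 19977713 to 23473543 fragments in the sham group and 21781014 to 23610870 in the MI group. Results are therefore given with and without MI replicate 2.

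With all 7 mice no member passed the test, and without MI replicate 2, 7 did. Levels were compared as log2(FPKM + 1) with limma, with Benjamini-Hochberg adjustment over all genes that reached an FPKM of 1 in 3 or more mice. Of the 10 members 9 passed this filter, and Fap did not. Cthrc1 was under 1 in every sham mouse, so it entered the test only because all MI mice reached 1, as did 122 of the 11431 genes. None of the 9 had an adjusted p under 0.05 with all mice, where 0.0262% of all genes did, 3 of 11431, although 7 of the 9 and 4496 of all genes had an unadjusted p under 0.05. The smallest adjusted p of a member was 0.108. Without MI replicate 2, Tcf21, Dpt, Pi16, Cthrc1, Meox1, Ddr2 and Thy1 rose in the MI group, and 57.0% of all genes did so in that fit, so most genes passed it. That mouse was left out for its own values, so p-values without it are smaller than a test of the groups would give and describe the other 6 mice only. With all mice but weighted by limma's estimate of each one's spread, which did not converge, the same number of members and 66.8% of all genes were called higher. With no filter, the median log2 fold change of the 10 members was 1.04, and that of all 30504 genes above 0 was 0.06.

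The groups did not overlap for 5 of the 10 members. Every MI mouse lay above every sham mouse for Dpt, Cthrc1, Ddr2 and Thy1 among the 9 that were tested, as for 16.1% of all genes, and for Fap. With no filter it held for 12.0% of the 30504 genes above 0. For Cthrc1 the filter fixed this order. Leaving out genes that passed with every sham mouse under 1, it held for 3 of 8 members and 15.2% of 11309 genes. No member lay below the sham mice in every MI mouse, which held for 1029 of the 11431 genes tested. MI replicate 2 alone lay above every sham mouse for 6 of the 10 members, the 5 named and Gsn, and for 19.3% of genes with no filter. The same was true of 20.4% of all genes, counted over those tested, against 5 of the 9 members tested. MI replicates 1 and 3 together lay above every sham mouse for 8 of the 10 members, Fap among them. This held for 61.9% of all genes tested, which leave out Fap.

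**Figure D1:**
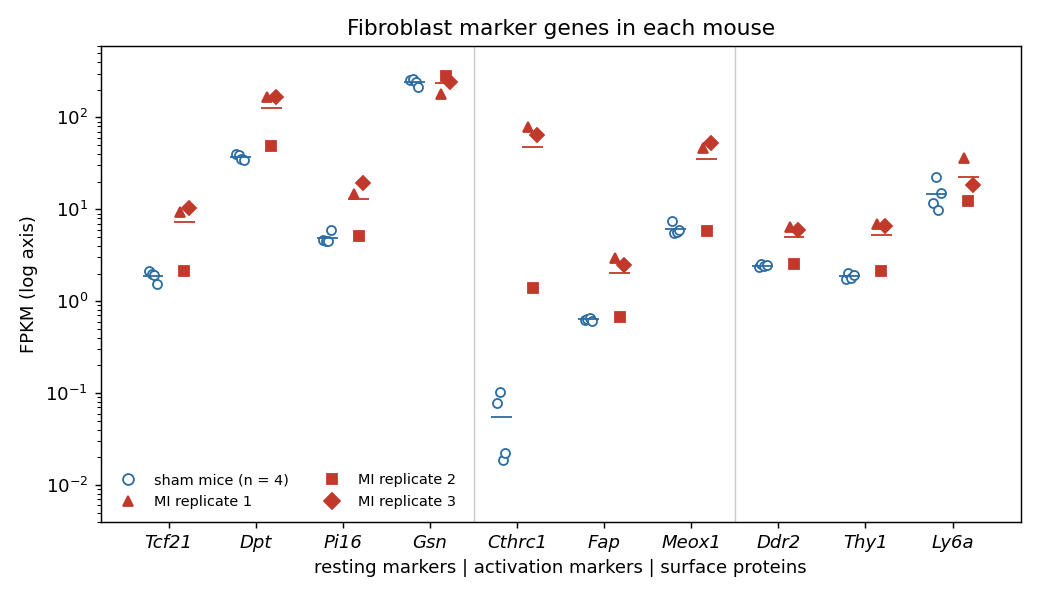
FPKM on a log axis of the 10 genes in each mouse, with open circles for the 4 sham mice, filled symbols for the 3 MI mice and a line at each group mean. MI replicates 1 and 3 lie together and above the sham mice in 8 of the 10 genes, while MI replicate 2 lies at 0.840 to 1.33 times the sham mean in all but Cthrc1.

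Among the resting markers, Tcf21, Dpt and Pi16 were several times higher in MI replicates 1 and 3 than in the sham mice, and Gsn was not. Tcf21 is a basic helix-loop-helix transcription factor needed for the development of cardiac fibroblasts. It lies on the minus strand of chr10:22817281-22820174 (GRCm38). Its FPKM was 2.16, 1.99, 1.92 and 1.54 in the sham mice and 9.26, 2.14 and 10.3 in the MI mice. MI replicate 2 fell inside the sham range, just below its highest mouse, and the other MI mice lay at 4.86 and 5.42 times the sham mean. The log2 fold change was 1.30 (SE 0.42, limma adjusted p = 0.108) with all mice and 1.90 (SE 0.10, adjusted p = 9.98e-06) without MI replicate 2.

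Dpt encodes dermatopontin, a small matrix protein that binds collagen fibres and decorin, and lies on the plus strand of chr1:164796644-164824266. The sham mice had an FPKM of 40.4, 38.7, 35.3 and 34.2, and the MI mice had 167, 49.4 and 168. All MI mice lay above all sham mice, and MI replicates 1 and 3 were nearly equal. In MI replicate 2 the level was 1.33 times the sham mean, 3.72 sham SDs above it on the log2 scale. Dpt changed by 1.56 on the log2 scale (SE 0.41, limma adjusted p = 0.108), and by 2.14 (SE 0.08, adjusted p = 3.15e-06) without MI replicate 2.

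Pi16, a marker of the fibroblasts found along vessels and tissue borders in many organs, lies on the plus strand of chr17:29317680-29330593. Its FPKM was 4.68, 4.53, 4.54 and 5.91 in the sham mice and 14.8, 5.09 and 19.4 in the MI mice. The highest sham mouse, replicate 4, exceeded MI replicate 2, so the groups overlapped, while MI replicates 1 and 3 lay above all sham mice. The log2 fold change of Pi16 was 1.09 (SE 0.38, limma adjusted p = 0.109), and 1.61 (SE 0.13, adjusted p = 6.00e-05) without MI replicate 2. An annotated gene on the opposite strand, AC162182.1, overlaps 222 of its exon bases.

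Gsn encodes gelsolin, which cuts and caps actin filaments and is abundant in fibroblasts but is also made by other cells of the heart. It lies on the plus strand of chr2:35256380-35307892. Levels were 253, 260.1, 241 and 212 FPKM in the sham mice and 181, 282 and 243 in the MI mice. The MI mice spanned the sham range on both sides, with MI replicate 1 lowest and MI replicate 2 highest of all 7. Gsn had a log2 fold change of -0.06 (SE 0.17, limma adjusted p = 0.806), and of -0.20 (SE 0.13, adjusted p = 0.211) without MI replicate 2, and its sign turned when the values were rescaled to equal totals (0.14) and without MI replicate 1 (0.12).

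Upstream sequence was read from RefSeq (GRCm38.p6) for 5 of the 10 members, and 3 windows are shown to set Tcf21 and Dpt, resting markers that were high together in MI replicates 1 and 3, beside Gsn, which was not. Capitals mark CAGCTG, an E-box of the kind that helix-loop-helix factors bind. The Tcf21 and Dpt windows end where the annotated gene begins and hold 219 and 231 bases.
Tcf21, chr10:22820175-22820393, minus strand: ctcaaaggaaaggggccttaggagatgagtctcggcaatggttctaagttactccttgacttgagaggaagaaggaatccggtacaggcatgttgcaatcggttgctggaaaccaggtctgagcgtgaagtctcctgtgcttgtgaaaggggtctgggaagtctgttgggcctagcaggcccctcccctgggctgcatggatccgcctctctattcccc
Dpt, chr1:164796413-164796643, plus strand: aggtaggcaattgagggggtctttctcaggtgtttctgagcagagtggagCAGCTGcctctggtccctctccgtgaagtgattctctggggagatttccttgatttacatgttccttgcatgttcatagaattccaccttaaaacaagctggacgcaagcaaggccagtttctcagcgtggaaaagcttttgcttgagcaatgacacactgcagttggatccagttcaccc
Gsn, chr2:35256109-35256358, plus strand: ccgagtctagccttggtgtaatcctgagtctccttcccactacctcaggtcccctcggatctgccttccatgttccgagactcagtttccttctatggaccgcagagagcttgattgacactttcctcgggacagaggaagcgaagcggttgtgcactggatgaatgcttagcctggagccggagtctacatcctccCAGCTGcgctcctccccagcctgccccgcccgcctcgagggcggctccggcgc
CAGCTG was found at 200 bases before the RefSeq start of Dpt and 53 before that of Gsn, also in 1 of the other Gsn windows, and was not found in the Tcf21 window. It reads the same on both strands, and 13.0% of all 32851 upstream windows of 250 bases held it. The AP-1 motif TGANTCA (6.75% of windows) and the TEAD motif GGAATG (12.6%), searched on both strands, had no match in any of the 7 windows of the 5 members. TATAAA (12.4% of windows) matched only in Ddr2. CpG dinucleotides and GC content were counted over all 250 bases before the RefSeq start, more than the Tcf21 and Dpt sequences shown. The Gsn window shown had 15 CpG and a GC content of 60.8%. The other Gsn windows had 2 and 56.0%, and 12 and 57.6%. Tcf21 had 5 and 52.4%, Dpt had 3 and 48.8%, and the medians over all windows were 6 and 52.4%.

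Of the activation markers, Cthrc1 showed the widest difference of all members. It encodes a secreted glycoprotein with a collagen triple helix repeat and lies on the plus strand of chr15:39076932-39087121. FPKM was 0.0786, 0.102, 0.0188 and 0.0221 in the sham mice and 78.1, 1.40 and 64.5 in the MI mice. These values rest on 4, 5, 1 and 1 fragments in the sham mice and on 3856, 72 and 3456 in the MI mice. The gene was thus close to the limit of detection after sham surgery, and it was above every sham mouse in every MI mouse, MI replicate 2 included.

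Per fragment sequenced, Cthrc1 in MI replicate 2 was 25.3 times the pooled sham mice (exact 95% interval 13.3 to 53.0), in MI replicate 1 it was 1409 times (787 to 2826) and in MI replicate 3 it was 1165 times (650 to 2337). These intervals cover counting error only. Cthrc1 was the only member in which MI replicate 2 exceeded the sham mean by more than 1.5 times, and on the log2(FPKM + 1) scale it reached 19.5% of the mean change of the other MI mice. Its log2 fold change on that scale, which understates the change of a gene this low in the sham mice, was 4.46 (SE 1.13, limma adjusted p = 0.108), the 4th largest of the 11431 genes. Its place among the genes tested rests on the MI values alone, since all sham mice were under the filter, and its test and rank are given as a description. Without MI replicate 2 it was 6.09 (SE 0.09, adjusted p = 2.70e-07), with a pseudocount of 0.1 it was 7.02, and on recovered fragments with voom weights it was 8.45.

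Fap encodes fibroblast activation protein, a membrane-bound serine protease, and lies on the minus strand of chr2:62500943-62574075. Its FPKM was 0.632, 0.634, 0.659 and 0.610 in the sham mice and 2.97, 0.677 and 2.49 in the MI mice. All MI mice lay above all sham mice, but MI replicate 2 by little, at 1.07 times the sham mean. The sham mice differed by a coefficient of variation of only 3.20%. Fap reached an FPKM of 1 in MI replicates 1 and 3 only and so failed the filter. With no filter its log2 fold change was 0.80 (SE 0.29, limma adjusted p = 0.188).

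Meox1, a homeobox transcription factor, lies on the minus strand of chr11:101877510-101894374. The sham mice had 7.42, 5.55, 5.74 and 5.98 FPKM and the MI mice 46.4, 5.87 and 53.2. MI replicate 2 lay inside the sham range and below the sham mean, while MI replicates 1 and 3 reached 7.52 and 8.62 times that mean. Meox1 had a log2 fold change of 1.87 (SE 0.67, limma adjusted p = 0.110), and of 2.83 (SE 0.12, adjusted p = 4.61e-06) without MI replicate 2. Unlike Cthrc1, it was already expressed in the sham mice at a level above that of Tcf21.

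**Figure D2:**
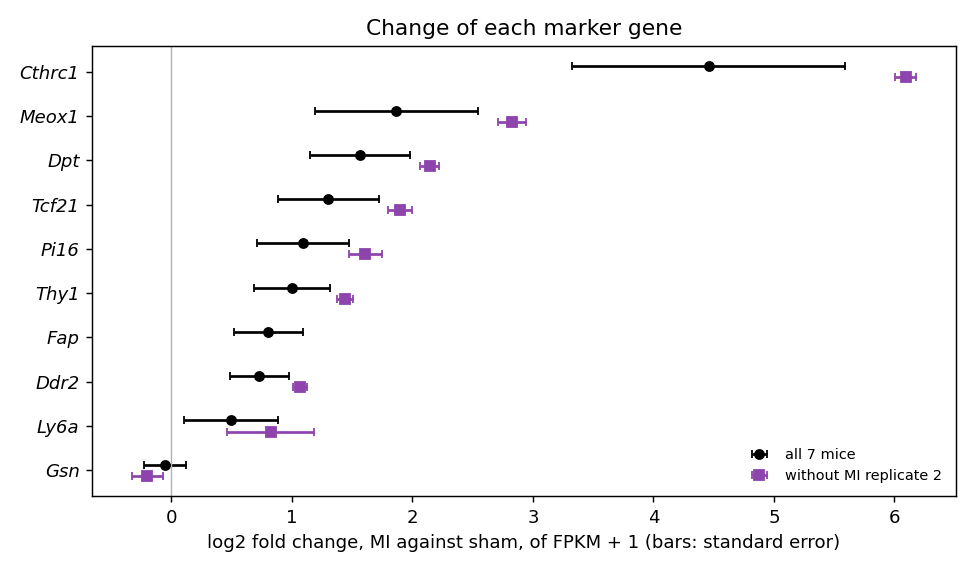
Log2 fold change of each gene, MI against sham, of FPKM + 1, with bars for the standard error from limma, for all 7 mice (circles) and without MI replicate 2 (squares). Values run from -0.06 for Gsn to 4.46 for Cthrc1 with all mice, and without MI replicate 2 the values are larger for 8 of the 9 genes and the bars shorter for all 9. Fap, which failed the filter, is drawn from the fit with no filter.

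Whether the activation markers changed more than the lineage marker Tcf21 was compared within each mouse, as the difference of log2(FPKM + 1) between a marker and Tcf21. For Cthrc1 this difference was -1.55, -1.44, -1.52 and -1.31 in the sham mice and 2.95, -0.39 and 2.53 in the MI mice. All MI mice lay above all sham mice, and the groups differed by 3.15 (exact two-sided permutation p = 0.0571, adjusted over 3 comparisons 0.171). With 4 against 3 mice 0.0571 is the smallest p this test can give.

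Fap minus Tcf21 was -0.95, -0.87, -0.82 and -0.66 in the sham mice and -1.37, -0.90 and -1.70 in the MI mice. Here MI replicate 2 lay inside the sham range, and the group difference was -0.50 (exact permutation p = 0.114, adjusted 0.171). Fap starts below the added constant of 1, which compresses its change more than that of Tcf21. Meox1 minus Tcf21 was 1.41, 1.13, 1.20 and 1.46 in the sham mice and 2.21, 1.13 and 2.26 in the MI mice. It was higher in MI replicates 1 and 3 than in any sham mouse, and the groups differed by 0.56 (exact permutation p = 0.286, adjusted 0.286). None of the 3 differences passed the test, which as defined here none could. Counted by the absolute difference instead, the exact permutation p for Cthrc1 was 0.0286, or 0.0857 adjusted over the 3 comparisons.

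**Figure D3:**
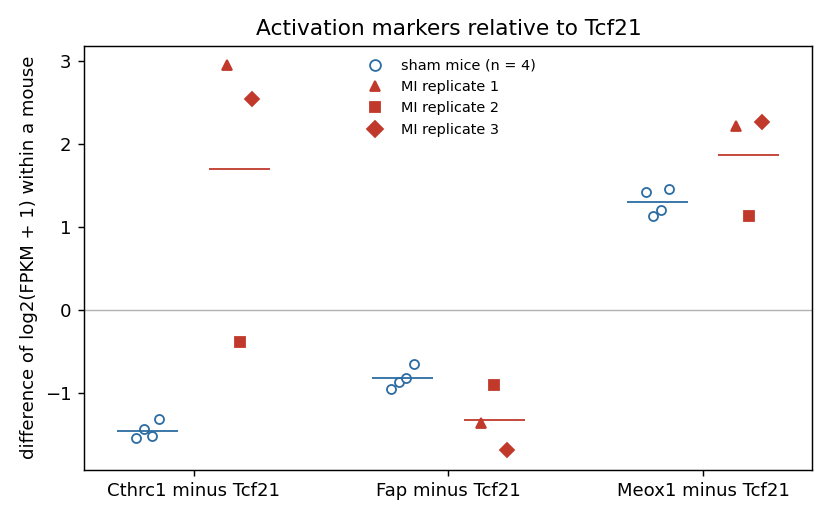
Difference of log2(FPKM + 1) between each activation marker and Tcf21 within a mouse, with open circles for the 4 sham mice, filled symbols for the 3 MI mice and lines at the group means. Cthrc1 stands above the sham mice in every MI mouse, from -0.39 to 2.95, and Meox1 only in MI replicates 1 and 3, while Fap lies below the sham mice in MI replicates 1 and 3.

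The surface proteins had log2 fold changes between 0.49 and 1.00. Ddr2, a receptor tyrosine kinase that binds fibrillar collagen, lies on the minus strand of chr1:169972307-170110762. Its FPKM was 2.35, 2.52, 2.44 and 2.45 in the sham mice and 6.49, 2.57 and 5.93 in the MI mice. All MI mice lay above all sham mice, with MI replicate 2 only just above the highest. Ddr2 had a log2 fold change of 0.73 (SE 0.25, limma adjusted p = 0.108), and of 1.07 (SE 0.06, adjusted p = 1.38e-05) without MI replicate 2. Under quantile normalization it was 0.46. An annotated gene on the opposite strand, 3110045C21Rik, overlaps 90 of its exon bases.

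Thy1, the membrane glycoprotein CD90, also found on T cells and neurons, lies on the plus strand of chr9:44043384-44048579. FPKM was 1.75, 2.02, 1.77 and 1.91 in the sham mice and 6.90, 2.12 and 6.61 in the MI mice. The groups did not overlap, and MI replicates 1 and 3 were 3.71 and 3.55 times the sham mean. Thy1 had a log2 fold change of 1.00 (SE 0.31, limma adjusted p = 0.108), and of 1.44 (SE 0.07, adjusted p = 6.60e-06) without MI replicate 2. T cell markers moved with it: the summed FPKM of 7 T cell genes was 0.41 to 0.67 in the sham mice and 6.71, 1.31 and 4.22 in the MI mice, each of the 7 was above 0 in some mouse, and their part in the Thy1 values was not tested.

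Ly6a encodes Sca-1, a lipid-anchored protein found on fibroblasts of the outer vessel wall, on endothelial cells and on blood stem cells. It lies on the minus strand of chr15:74994877-74998031. Levels were 11.9, 22.7, 9.74 and 14.9 FPKM in the sham mice and 36.1, 12.4 and 18.3 in the MI mice. The sham mice spread more than for any other member but Cthrc1 (coefficient of variation 38.3%), and only MI replicate 1 lay above all of them. Its log2 fold change was 0.49 (SE 0.39, limma adjusted p = 0.336), and 0.82 (SE 0.36, adjusted p = 0.0763) without MI replicate 2. Without MI replicate 1 it was 0.09 (adjusted p = 0.865), and it was 0.23 under scaling by the median log-ratio. The gene shares 19.0% of its 50-base exon windows with other genes, chiefly Ly6c1, so its level is uncertain.

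In order of level (FPKM, per length), the sham means ran from Gsn at 242 through Dpt at 37.2, Ly6a at 14.8, Meox1 at 6.17, Pi16 at 4.92, Ddr2 at 2.44, Tcf21 at 1.90, Thy1 at 1.86 and Fap at 0.634 to Cthrc1 at 0.0553. The sham ranges of Meox1 and Pi16 overlapped, as did those of Tcf21 and Thy1, and the other neighbours in this order did not overlap. In the MI group Cthrc1 moved from the lowest place to the third, at 48.0 ± 40.9 (SD, n = 3), behind Gsn at 235 ± 51.0 (SD, n = 3) and Dpt at 128 ± 68.0 (SD, n = 3). From Dpt down, all neighbours in the MI group overlapped. The gene lengths implied by the FPKM values equalled the GENCODE M21 exon lengths for Dpt and Meox1 but not for the other 8 members (3452 against 1205 bases for Ly6a), which affects the order between genes but not the ratio between mice.

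Across the 7 mice the members other than Gsn and Ly6a followed each other closely. The Pearson correlation of log2(FPKM + 1) was 0.993 between Tcf21 and Dpt, 0.988 between Tcf21 and Cthrc1 and 0.998 between Fap and Ddr2, while Gsn had -0.479 with Tcf21 and -0.631 with Ly6a. These describe 7 points that fall into a pair of MI mice and the rest, and all genes share the libraries. The gene nearest to each member by this measure, among 11422 others, was Ccn5 for Tcf21 (0.9989), Prr13 for Dpt (0.9991), Atp9a for Pi16 (0.9969), Lox for Cthrc1 (0.9996), Stt3a for Fap (0.9995), Rbck1 for Meox1 (0.9996), Pcnp for Ddr2 (0.9998) and Igsf8 for Thy1 (0.9997). Between 42 genes for Pi16 and 983 for Fap exceeded 0.99. For Gsn and Ly6a no gene did, and the nearest were Zfyve21 (0.9377) and Uchl5 (0.9710).

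Other genes of the fibroblast lineage were compared next. Of 11 such genes, all passed the filter, none was called with all mice, 9 rose without MI replicate 2, where 57.0% of all genes did, and 4 had every MI mouse above every sham mouse, against 16.1% of all genes, with a median log2 fold change of 1.08 with all mice, where the median of all genes tested was 0.21. Values ran from -0.12 to 2.48. The lowest was that of Scara5, named after its values were seen, and it was -0.33 without MI replicate 2. Dcn, the small proteoglycan decorin, had an FPKM of 47.1, 45.2, 40.4 and 43.0 in the sham mice and 193, 58.4 and 177 in the MI mice, and Lum, the proteoglycan lumican, had 19.0, 20.7, 20.9 and 20.2 and 187, 30.7 and 165. Both lay above the sham mice in all MI mice. Clec3b, which encodes tetranectin, had 36.4, 41.3, 37.6 and 43.0 in the sham mice and 41.5, 42.6 and 57.3 in the MI mice, with groups that overlapped.

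A list of 16 activated fibroblast genes, which are expressed by fibroblasts that build scar, had a median log2 fold change of 3.22 over all 16, with no filter, and 11 of the 16 had every MI mouse above every sham mouse, against 12.0% of genes with no filter. The filter passed 9 of them, none was called with all mice and all 9 rose without MI replicate 2, as did 57.0% of all genes. Lox and Thbs4, the latter named here after its values were seen, passed with every sham mouse under 1, and 7 genes failed with MI replicate 2 under 1 and the other MI mice above it, so that passing depended on the change itself. MI replicate 2 lay above every sham mouse in 11 of the 16, against 19.3% of genes with no filter, and its summed FPKM of 184 compared with 102 to 146 in the sham mice and 2445 and 1961 in MI replicates 1 and 3. Col1a1, a chain of type I collagen, had an FPKM of 23.0, 19.5, 18.4 and 17.1 in the sham mice and 768, 40.5 and 569 in the MI mice, and Col3a1, the chain of type III collagen, had 35.2, 30.9, 29.1 and 24.7 and 830.1, 67.0 and 575. For both, all MI mice exceeded all sham mice. Acta2, the smooth muscle actin that marks myofibroblasts and vessel walls, had 74.0, 65.4, 65.2 and 46.8 in the sham mice and 121, 45.4 and 162 in the MI mice, so that MI replicate 2 was the lowest of all.

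**Figure D4:**
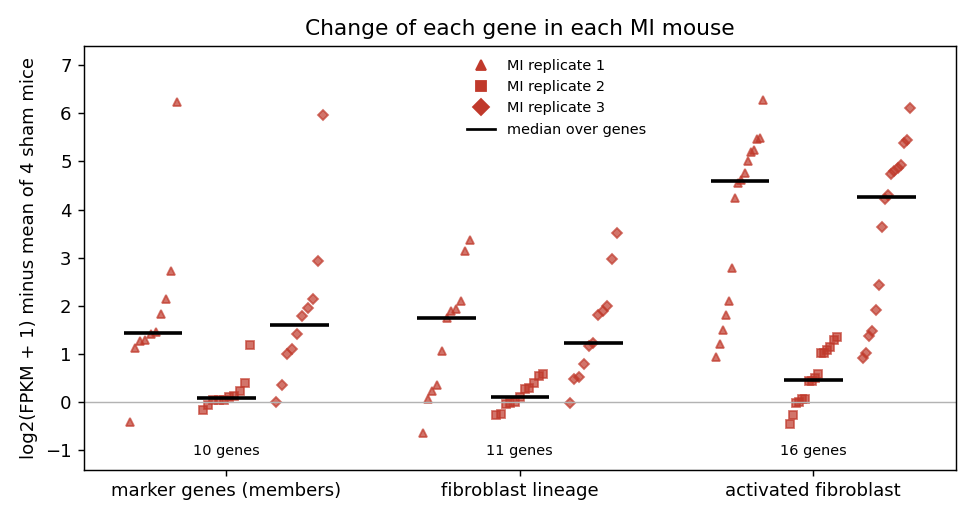
Change of each gene in each MI mouse, as log2(FPKM + 1) minus the mean of the 4 sham mice, for the members, the fibroblast lineage list and the activated fibroblast list, over every gene of each, with a line at the median. In MI replicate 2 the medians are 0.09, 0.11 and 0.47, against 1.45, 1.76 and 4.59 in MI replicate 1 and 1.60, 1.23 and 4.27 in MI replicate 3.

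Close relatives of the members were compared to see whether a family moved as a whole. Of 10 relatives 6 passed the filter, none was called with all mice, 4 of the 6 rose without MI replicate 2, a share close to the 57.0% of all genes, and 4 of the 10 had every MI mouse above every sham mouse, against 12.0% of genes with no filter, with a median log2 fold change of 0.47 over all 10 with no filter. Over the 6 that passed the median was 0.48, and it was 0.26 under quantile normalization and 0.21 with scaling by the median log-ratio. Meox2, the relative of Meox1, had an FPKM of 9.65, 9.03, 7.58 and 6.74 in the sham mice and 8.44, 4.92 and 9.83 in the MI mice, with MI replicate 2 lowest of all and the others inside the sham range or just above it. Ddr1, the other discoidin domain receptor, had 4.24, 4.55, 4.19 and 4.32 in the sham mice and 11.2, 4.61 and 9.80 in the MI mice, with no overlap, and a log2 fold change of 0.77 beside 0.73 for Ddr2.

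Of the gelsolin relatives, Capg had an FPKM of 2.13, 1.88, 2.10 and 1.90 in the sham mice and 13.0, 1.81 and 9.29 in the MI mice, a rise without MI replicate 2 (limma adjusted p = 1.86e-05), as for 57.0% of all genes. Scin had 0.961, 1.12, 1.14 and 0.631 and 1.17, 1.08 and 1.23, and Vil1 stayed under 0.2 in every mouse. Capg, a capping protein common in macrophages, had groups that overlapped, with MI replicate 2 below every sham mouse. Msc, a helix-loop-helix factor related to Tcf21, had 0.412, 0.426, 0.528 and 0.316 in the sham mice and 2.03, 0.527 and 2.70 in the MI mice, and Dpp4, the protease closest to Fap, had 0.367, 0.489, 0.665 and 0.838 and 1.43, 0.862 and 1.64. Of these, only Dpp4 had groups that did not overlap, and neither passed the filter.

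Around Ly6a, Ly6c1, a marker of endothelial and myeloid cells, had an FPKM of 25.7, 25.6, 28.3 and 24.5 in the sham mice and 34.2, 31.2 and 33.8 in the MI mice, with no overlap. Ly6c2 had 0.235, 0.254, 0.234 and 0.230 and 1.03, 0.334 and 0.631, also with no overlap, and Ly6e had 9.07, 8.04, 8.47 and 14.3 and 19.5, 9.17 and 20.4. Ly6c1 and Ly6c2 share windows of identical sequence with Ly6a, so reads may have been split between them.

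Markers of other cell types were set beside the fibroblast genes, and they did not all move the same way. The summed FPKM of 6 cardiomyocyte genes was 5959 to 6365 in the sham mice and 3132, 6064 and 3712 in the MI mice, all 6 fell without MI replicate 2, as did 14.7% of all genes, and the median log2 fold change was -0.57. That of 6 macrophage genes was 154 to 200.4 in the sham mice and 1045, 186 and 898 in the MI mice, and all 6 rose without MI replicate 2, as did 57.0% of all genes. Endothelial genes (6) had a median log2 fold change of 0.29, which was 0.04 under quantile normalization and 0.04 with scaling by the median log-ratio. They summed to 127 to 151 in the sham mice and 162, 119 and 178 in the MI mice, and 4 of the 6 rose without MI replicate 2, a share close to that of all genes, while Kdr lay below the sham mice in every MI mouse. Pericyte and smooth muscle genes (6) had a median of 0.18 with no filter. Over the 5 that passed it was 0.16, and it turned to -0.11 under quantile normalization and to -0.07 with scaling by the median log-ratio. The 6 genes summed to 158 to 174 in the sham mice and 167, 164 and 167 in the MI mice, mostly from Rgs5. Of these, Kcnj8 lay below the sham mice in every MI mouse, and Cnn1, named after its values were seen, lay above them, at 0.542, 0.560, 0.507 and 0.531 in the sham mice and 6.67, 0.685 and 5.25 in the MI mice. Within each list every gene was above 0 in some mouse, and the part of cell composition in the members' values was not tested.

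Scarce cell types were also seen. B cell genes (4) summed to 0.731 to 1.03 in the sham mice and 33.5, 0.600 and 5.27 in the MI mice, neutrophil genes (5) to 0.355 to 1.31 and 13.8, 0.503 and 7.37, and Schwann cell genes (5) to 1.57 to 2.30 and 1.68, 2.11 and 1.88. None of these or of the T cell genes passed the filter. The scaling between mice bears on all of these values: the median log2 fold change of all genes moved by 0.21 when the values were rescaled to equal totals, by -0.24 with quantile normalization and by -0.21 with scaling by the median log-ratio. The median of the 9 members that passed the filter was 1.09 before and 1.35, 0.83 and 0.84 after these steps, beside 0.21 before and 0.42, -0.03 and 0.00 after for all genes tested.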

How the data were processed

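RNA of myocardial tissue from 4 sham-operated and 3 MI mice was sequenced. The sample labels gave the groups. The authors deposited values of 56980 genes without naming the unit in the header, and they were taken as FPKM. All their columns were used. The submitters' processing notes name CASAVA 1.8, HISAT2, SAMtools 1.3.1 and edgeR without roles, and the annotation, the counter and the strand setting are not given in the sources used here. GENCODE M21 (GRCm38) gave symbols and positions for 52073 gene identifiers (91.4%).

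FPKM values were whole multiples of a step per gene in each mouse, and whole fragments were recovered for 30503 of the 30504 genes above 0, within 0.02 of a whole number in every mouse. The implied gene length equalled the M21 exon length for 38.1% of them. The recovery and the test were checked on simulated data. Depth was 19977713 to 23610870 fragments per mouse.

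Values were analysed as log2(FPKM + 1) over the 11431 genes that reached an FPKM of 1 in 3 or more mice, with limma 3.58.1 (lmFit, eBayes with trend) in R 4.3.3 without covariates, two-sided, with Benjamini-Hochberg adjustment at 0.05. The sources used here state no test for the sequencing data. Differences between genes within a mouse were compared by an exact two-sided permutation test over 35 splits, with p as 2 times the smaller tail, a definition settled after the values were seen. Counting splits by the absolute difference gave 0.0286, 0.0571 and 0.171 for Cthrc1, Fap and Meox1, and 0.0857, 0.0857 and 0.171 after adjustment. The ratio of Cthrc1 fragments has an exact (Clopper-Pearson) interval. Tables were handled in pandas 2.3.3 and NumPy 2.4.6, intervals in SciPy 1.17.1, and plots in matplotlib 3.10.9, under Python 3.11.15.

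Named genes were all members in every mouse, up to 3 genes of the highest mean FPKM in each marker list, all relatives of the members, and the gene nearest to each member by Pearson correlation. Members and lists were chosen with earlier results of these data known. The motifs, the upstream windows shown, the 50-base window for shared sequence, the recovery tolerance and the Cthrc1 ratio were chosen after the data were seen. Alternatives were another pseudocount, other filters, scalings and variance models, fragments in place of FPKM, a replicate block, and each mouse left out.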

Additional observations from a re-analysis of the deposited data

Results flagged for a closer look

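In 26 sets of values, the 4 sham mice were tested for a mouse that lies far from the others by the gap to its nearest neighbour over the whole range (Dixon's ratio, against its 95% critical value for 4 values), and 2 sets had such a mouse. For Pi16 the ratio was 0.888, with sham replicate 4 at an FPKM of 5.91 and the next at 4.68. For the summed FPKM of neutrophil genes it was 0.868, with sham replicate 2 at 1.31 and the next at 0.481. Chance flags about 1 in 20 such sets.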

How the results depend on the processing

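Each mouse was left out in turn and the other settings were changed separately. The number of members called was 0 to 7 over the fits that left out a mouse, with 7 only without MI replicate 2, and 7 with limma sample weights, whose estimation did not converge and which gave MI replicate 3 a weight of 437 against 0.0217 for MI replicate 2. These fits called 57.0% and 66.8% of all genes higher. It stayed at 0 in the other settings. The number of members whose groups did not overlap was 5 to 8 over the fits that left out a mouse, and 5 or 6 in the other settings. The 8 were found without MI replicate 2 and include Fap. In that setting 61.9% of all genes tested, which leave out Fap, had the MI mice above the sham mice. Under quantile and median log-ratio scaling the count leaves out Fap, so the 5 found there are not the same 5. The 3 differences to Tcf21 kept their sign: 2.53 to 4.20 for Cthrc1, -0.71 to -0.31 for Fap and 0.37 to 0.93 for Meox1 when a mouse was left out. A pseudocount of 0.1 moved Cthrc1 to 5.43 and Fap to -0.27, both by over 1.5 times, and Meox1 to 0.38. Fap had no value under quantile or median log-ratio scaling. Of the log2 fold changes of the members, only that of Gsn changed sign, to 0.14 when values were rescaled to equal totals and to 0.12 without MI replicate 1, with a range of -0.20 to 0.12 over the fits that left out a mouse. The adjusted p of Cthrc1 ranged from 3.72e-08 to 0.335 over the settings. Deviations of same-numbered mice from their group means correlated at 0.074, -0.016 and -0.080. With 3 pairs and MI replicate 2 far from the other MI mice, these values cannot show whether the numbers mark pairs. With the replicate block, 0 members were called, and the differences were 3.20 (p = 0.25, exact), -0.44 (0.25) and 0.62 (0.50), where 0.25 is the smallest p that 3 pairs can give. With 3 MI mice, of which MI replicate 2 decides most calls, the size of the change in the MI group is poorly fixed. Counts near 1 fragment, as for Cthrc1 in the sham mice, limit its ratio.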

Other observations

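Of 6 genes of the mesothelium and epicardium, the outer lining of the heart, 5 had every MI mouse above every sham mouse, MI replicate 2 included, against 12.0% of genes with no filter. The exception was Wt1, named after its values were seen, with an FPKM of 0.486, 0.544, 0.481 and 0.640 in the sham mice and 1.21, 0.451 and 1.07 in the MI mice, so that MI replicate 2 was the lowest of all. Wt1 alone failed the filter, which Upk1b and Krt19, the latter named after its values were seen, passed with every sham mouse under 1, so no count over the genes that passed is given. Upk1b, a uroplakin, had an FPKM of 0.354, 0.488, 0.469 and 0.750 in the sham mice and 4.90, 2.74 and 6.29 in the MI mice (log2 fold change 1.85, SE 0.22, limma adjusted p = 0.0652, a gene tested only through its MI values). Msln, mesothelin, had 0.745, 0.556, 1.59 and 1.96 and 6.01, 5.32 and 7.68, and Upk3b had 1.73, 1.83, 3.19 and 4.28 and 9.07, 7.18 and 16.8. The median change over the 6 genes in MI replicate 2 was 1.22 on the log2 scale, against 1.49 and 1.97 in MI replicates 1 and 3.

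Of 6 genes of dividing cells, MI replicate 2 was above every sham mouse in 1, against 19.3% of genes with no filter. This was Ccnb1, named after its values were seen (0.0665, 0.109, 0.0741 and 0.0995 in the sham mice and 0.628, 0.115 and 0.405 in the MI mice). Mki67, which marks cells in cycle, had an FPKM of 1.12, 1.34, 1.79 and 1.49 in the sham mice and 5.36, 1.36 and 4.61 in the MI mice, and Top2a, a topoisomerase of dividing cells, had 0.723, 0.906, 1.03 and 1.06 and 3.88, 0.844 and 3.28. Both rose without MI replicate 2 (limma adjusted p = 8.87e-05 and 5.34e-05), as did 57.0% of all genes, and no other gene of this list passed the filter. Plk1, a mitotic kinase, had 0.482, 0.256, 0.421 and 0.479 and 2.39, 0.368 and 1.95 and did not pass the filter.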
